A study of Rattus norvegicus with 4 samples.

Results

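The genes described here encode the TRP (transient receptor potential), acid-sensing (Asic), hyperpolarization-activated (Hcn) and Piezo cation channels of the rat carotid body (CB), an oxygen-sensing organ beside the branching of the carotid artery. They were chosen by gene symbol alone, by a rule that takes the Trpc, Trpm, Trpv, Trpa1, Asic, Hcn and Piezo symbols and found 32 of 32883 genes, of which 30 are described here. RNA-seq was performed on whole CBs of Sprague-Dawley rats, with 2 libraries from neonates (day 5) and 2 from adults (day 21), to follow postnatal development of the organ. The labels name no treatment and 1 strain, both sexes were mixed, and day 21 is the age of weaning, so the adults are young animals. The sample labels give CBs pooled from 6 pups or 3 adults per library, whereas the methods of the study describe larger pools and more replicates, and the 4 labelled libraries were used. Estimated counts summed to 39476110 and 38506468 in the neonatal and to 37778975 and 36286191 in the adult libraries, of which the 30 channel genes took 10876 and 11447 counts in neonates and 13560 and 14258 in adults. Levels are CPM (counts scaled to a fixed library total) scaled by TMM normalization, and 3 counts, taken as the floor of detection, corresponded to between 0.0735 and 0.0843 CPM on this scale, which covers counting error only. Tyrosine hydroxylase (Th), which marks glomus cells, was at 1020 and 835 CPM in neonates and at 1400 and 1130 CPM in adults. The first neonatal library stood apart by parathyroid RNA, since parathyroid hormone (Pth) was at 1770 CPM there, at 208 CPM in the second neonatal library and at 0 counts in both adult libraries. In RNA from a whole organ, fewer cells of a type and less RNA per cell cannot be told apart.

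These channels let cations, in several cases calcium, into a cell and so depolarize it. TRPC channels open downstream of receptors that activate phospholipase C, HCN channels carry the pacemaker current that opens on hyperpolarization and is tuned by cyclic AMP, ASIC channels open on extracellular acid, and Piezo channels open when the membrane is stretched. Glomus cells depolarize when oxygen falls or acid rises and then release transmitter onto sensory nerve endings, and the CB also holds glia, vessels, fibroblasts and nerve fibres, which express channels of these families as well.

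Of the 30 channel genes, 21 were tested, since they reached 1 CPM in 2 or more libraries. In neonates, Trpm5 and Asic1 were higher by at least 2-fold, and Trpc5, Hcn4, Asic4, Asic2 and Trpv3 were lower by at least 2-fold. The threshold was an adjusted p below 0.05, from the quasi-likelihood test of edgeR with Benjamini-Hochberg adjustment over 13838 genes. These are 2 higher and 5 lower of 21, beside 7.68% higher and 13.2% lower among all genes tested. Asic4, Asic2 and Trpv3 passed the filter on low levels only through the adult libraries, so that they had to be lower in neonates if they differed. With no minimum fold, 6 genes were higher and 10 lower, beside 31.2% and 31.1% of all genes, and Hcn3, Trpc4, Trpc6, Trpm2 and Trpv1 did not pass. The libraries of the 2 ages did not overlap in 18 of the 21 genes, beside 83.0% of all genes. The median log2 fold change, neonate over adult, was -0.69 over the 21 genes and -0.0029 over all genes tested. The 21 genes include Asic4, Asic2 and Trpv3, whose direction was fixed by the filter, so their median was in part set by the filter. Scaled to library size alone, which moved the median of all genes to -0.25, the split at 2-fold was 1 higher and 8 lower of 21. Among all 13838 genes it was then 704 higher and 2548 lower. Without the first neonatal library, the log2 fold change was -1.3 for Asic2 and -1.61 for Trpm2. Without either adult library, Asic2, Asic4 and Trpv3 fell under the filter, which left 18 channel genes tested. The median was -0.40 without the second neonatal library, -0.11 without the first and -0.28 without the second adult library, and 0.01 for genes with a mean of at least 5 CPM. Asic2, Asic4 and Trpv3 were in none of the fits that gave -0.11, -0.28 and 0.01. The size of the median thus rested on the genes and libraries kept and its sign on the genes kept.

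**Figure D1:**
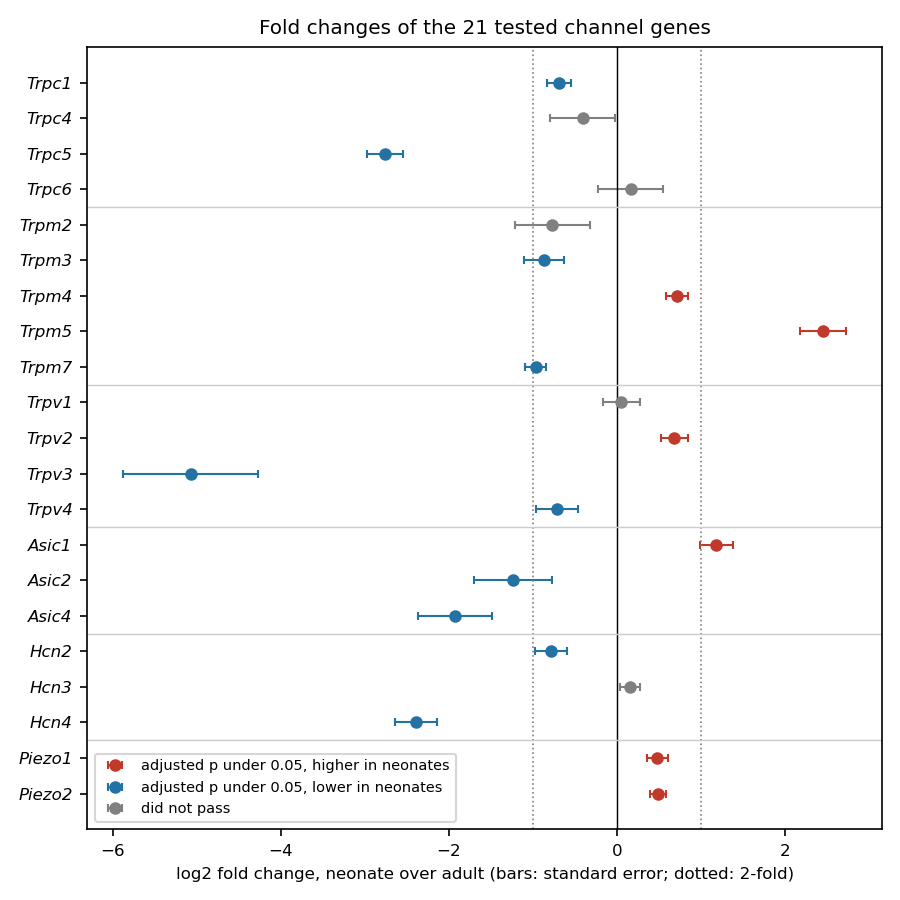
Log2 fold change, neonate over adult, of the 21 tested channel genes on the x axis, with bars for the standard error and dotted lines at 2-fold. Genes of the TRPM, TRPV and Asic families that passed lie on both sides of 0, while Hcn2 and Hcn4 are lower and both Piezo genes higher in neonates. The fitted value drawn for Trpv3, which had 3 and 0 counts in neonates, depends on the prior count.

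**Figure D2:**
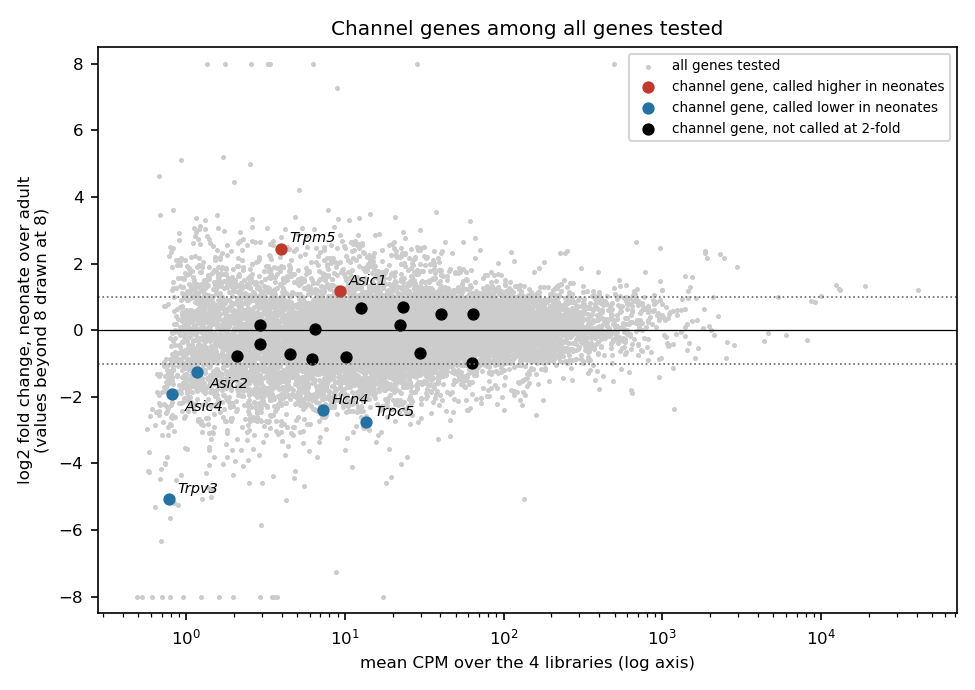
Log2 fold change, neonate over adult, against the mean CPM over the 4 libraries (log axis) for the 13838 genes tested, with the channel genes as large points. The 7 channel genes called at 2-fold are named.

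Of 4 tested TRPC genes described, Trpc5 and Trpc1 were lower in neonates and 0 higher, beside 31.1% and 31.2% of all genes. Trpc5, a channel that opens downstream of Gq-coupled receptors and is found mainly in neurons, was at 2.75 and 4.28 CPM in neonates and at 25.6 and 22.0 CPM in adults. Both adult libraries were far above both neonatal ones. It was 6.76-fold higher in adults (log2 fold change -2.76 ± 0.21 SE, edgeR adjusted p = 1.4e-05). Trpc1, which forms mixed channels with other TRPC subunits, was at 26.2 and 19.0 CPM in neonates and at 35.4 and 37.5 CPM in adults, 1.61-fold higher in adults (log2 fold change -0.69 ± 0.14 SE, edgeR adjusted p = 0.0027). Trpc1 was the 1 channel gene with fractional estimated counts, which arise where reads fit more than 1 copy. Trpc5 overlaps Alg13 and Trpc5os in the RefSeq gene table, and Trpc5os had 0 counts in all 4 libraries. The part of Alg13 in the Trpc5 counts was not tested.

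Trpc4 and Trpc6 were at a few CPM and their ages overlapped. Trpc4, the closest relative of Trpc5, was at 3.12 and 1.86 CPM in neonates and at 4.26 and 2.36 CPM in adults (log2 fold change -0.41 ± 0.39 SE, edgeR adjusted p = 0.38). Trpc6, a channel opened by diacylglycerol, was at 2.08 and 4.11 CPM in neonates and at 2.20 and 3.34 CPM in adults (log2 fold change 0.16 ± 0.39 SE, edgeR adjusted p = 0.74). In both genes the libraries of one age differed by more than the means of the ages. Trpc7, a relative of Trpc6, was not tested, with 24 and 4 counts in neonates and 10 and 4 counts in adults.

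Ratios of counts of a pair of genes within a library do not depend on scaling, and a gene's length drops out when such a ratio is compared between ages. The pairs were chosen after the values had been seen, so the ratios are given as a description without a test. The ratio of Trpc5 to Trpc1 counts was 0.105 and 0.225 in neonates and 0.723 and 0.586 in adults, 4.24-fold higher in adults. Trpc5 thus gained on Trpc1, with no overlap between ages.

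**Figure D3:**
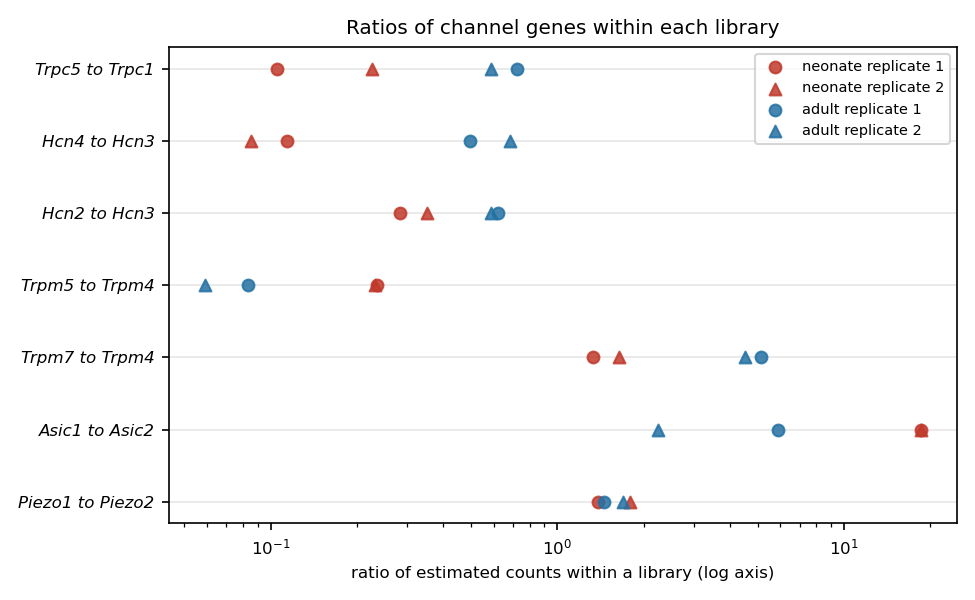
Ratio of the estimated counts of pairs of channel genes within each library (log axis), with circles for replicate 1 and triangles for replicate 2 of neonates (red) and adults (blue). The ages are apart in every pair drawn except Piezo1 to Piezo2. Asic2 passed the filter only through the adult libraries, so the direction of the Asic1 to Asic2 pair was in part set by the filter.

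The enzymes and G proteins that act upstream of TRPC channels were measured as a list of 16 genes, of which 3 passed as higher and 9 as lower in neonates with no minimum fold, beside 31.2% and 31.1% of all genes. Plcb4, a phospholipase C driven by Gq, was at 355 and 375 CPM in neonates and at 618 and 591 CPM in adults (log2 fold change -0.73 ± 0.086 SE, edgeR adjusted p = 0.00011). Plcg1, the form driven by tyrosine kinases, was at 414 and 438 CPM in neonates and at 251 and 284 CPM in adults (log2 fold change 0.67 ± 0.092 SE, edgeR adjusted p = 0.00026). Other forms of both kinds, named after their values had been seen, did not all follow. Plcg2, also driven by tyrosine kinases, was lower in neonates (log2 fold change -0.74 ± 0.28 SE, edgeR adjusted p = 0.043). Of the other forms driven by Gq, Plcb1 was lower, as Plcb4 was (log2 fold change -0.3 ± 0.098 SE, edgeR adjusted p = 0.024). Plcb3 (log2 fold change 0.12 ± 0.09 SE, edgeR adjusted p = 0.28) and Plcb2 (log2 fold change -0.29 ± 0.4 SE, edgeR adjusted p = 0.54) did not pass. Of the inositol trisphosphate receptors, which release calcium from the store, Itpr3 was higher in neonates (log2 fold change 0.51 ± 0.15 SE, edgeR adjusted p = 0.014). Itpr1 (log2 fold change -0.54 ± 0.13 SE, edgeR adjusted p = 0.0063) and Itpr2 (log2 fold change -1.35 ± 0.24 SE, edgeR adjusted p = 0.0012), named after their values had been seen, were lower. Plce1, a phospholipase C driven by Ras, was lower as well (log2 fold change -0.48 ± 0.097 SE, edgeR adjusted p = 0.0024). The G protein subunits Gnaq and Gna11, named after their values had been seen, were lower in neonates as well, with log2 fold changes of -1.57 ± 0.14 and -1.08 ± 0.14 (SE). Gna14, the other G protein subunit of the list, did not pass (log2 fold change -0.74 ± 0.37 SE, edgeR adjusted p = 0.11) and was also named after its values had been seen.

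Among the TRPM channels, 2 were higher and 2 lower in neonates of 5 tested, beside 31.2% and 31.1% of all genes. Trpm5, a calcium-activated channel for monovalent cations known from taste cells, was at 6.52 and 6.94 CPM in neonates and at 1.30 and 1.16 CPM in adults, 5.47-fold higher in neonates (log2 fold change 2.45 ± 0.27 SE, edgeR adjusted p = 8.4e-05). Trpm4, its calcium-activated relative, was at 27.7 and 29.9 CPM in neonates and at 15.5 and 19.6 CPM in adults, 1.64-fold higher (log2 fold change 0.71 ± 0.13 SE, edgeR adjusted p = 0.0014). The ratio of Trpm5 to Trpm4 counts was 0.235 and 0.232 in neonates and 0.0835 and 0.059 in adults. Trpm7, a channel fused to a kinase that carries magnesium and calcium, was at 36.8 and 49.0 CPM in neonates and at 79.7 and 88.2 CPM in adults, just under 2-fold (log2 fold change -0.97 ± 0.13 SE, edgeR adjusted p = 0.00027). Trpm3, a heat- and steroid-activated channel, was at 4.35 and 4.44 CPM in neonates and at 6.73 and 9.38 CPM in adults (log2 fold change -0.87 ± 0.24 SE, edgeR adjusted p = 0.012). Without the second adult library, where the neonates alone gave the spread, its log2 fold change was -0.64 and the call did not hold. Trpm2, a channel gated by ADP-ribose and oxidative stress, was at 2.25 and 0.861 CPM in neonates and at 2.30 and 2.99 CPM in adults (log2 fold change -0.77 ± 0.45 SE, edgeR adjusted p = 0.17). Its size depended on the neonatal library kept, with a log2 fold change of -1.61 without the first and of -0.22 without the second.

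The other TRPM genes were not tested. Trpm1, known from the retina and pigment cells, had 10 and 0 counts in neonates and 5 and 3 in adults. Trpm6, an epithelial relative of Trpm7, had 8 and 10 counts in neonates and 0 and 4 in adults. Trpm8, the cold receptor of sensory neurons, had 5 and 0 counts in neonates and 6 and 8 in adults. None of these 3 genes had more than 10 counts in a library, and none passed when the filter on low counts was left out.

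**Figure D4:**
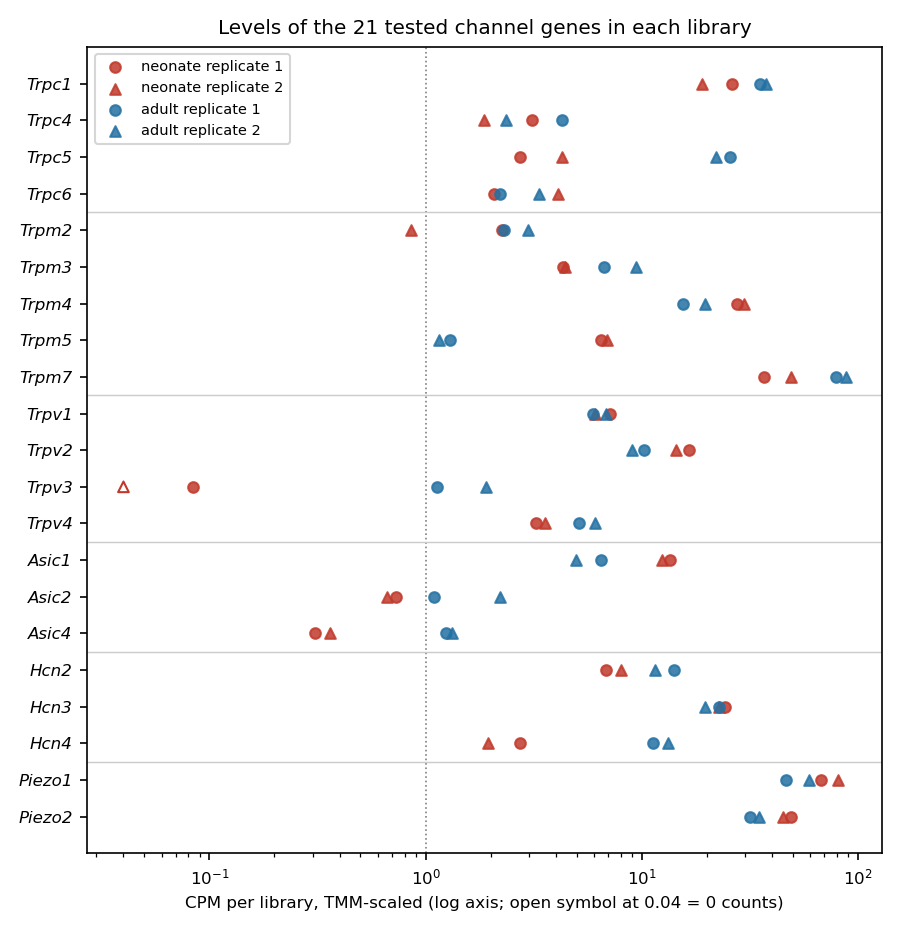
CPM in each library (TMM-scaled, log axis) of the 21 tested channel genes, with circles for replicate 1 and triangles for replicate 2 of neonates (red) and adults (blue). The dotted line marks 1 CPM, the open symbol stands for 0 counts, and the ages overlap in Trpc4, Trpc6 and Trpv1. Levels of different genes are not comparable, since they were not divided by length.

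Of 4 TRPV genes tested, 1 was higher and 2 were lower in neonates, beside 31.2% and 31.1% of all genes, and the direction of Trpv3 was fixed by the filter, which it passed only through the adult libraries. Trpv1, the capsaicin receptor of sensory neurons, was at 7.11 and 6.11 CPM in neonates and at 5.95 and 6.86 CPM in adults (log2 fold change 0.05 ± 0.22 SE, edgeR adjusted p = 0.87), and its libraries interleaved. Trpv2, a relative found in neurons and immune cells, was at 16.5 and 14.4 CPM in neonates and at 10.3 and 9.00 CPM in adults, 1.60-fold higher in neonates (log2 fold change 0.68 ± 0.16 SE, edgeR adjusted p = 0.005). Trpv2 overlaps the protein-coding LOC120095326 and small nucleolar RNA genes in the RefSeq gene table, and their part in its counts was not tested. Trpv4, opened by cell swelling and warmth, was at 3.26 and 3.58 CPM in neonates and at 5.12 and 6.08 CPM in adults, 1.64-fold higher in adults (log2 fold change -0.71 ± 0.25 SE, edgeR adjusted p = 0.033). Its log2 fold change was -0.63 without the first neonatal, -0.86 without the first adult and -0.61 without the second adult library. The call did not hold in these fits, where the other age alone gave the spread. Trpv3, a warmth-activated channel best known from skin, had 3 and 0 counts in neonates and 46 and 76 counts in adults (edgeR adjusted p = 0.0006). Per TMM-scaled library total this was 36.1 times as many counts in adults, with an exact 95% interval of 12.1 to 178 that covers counting error only. Nearly all Trpv3 reads thus came from adult libraries, but its adult level of 1.13 and 1.91 CPM was low. Trpv3 overlaps Aspa in the RefSeq gene table, a gene with 370 and 355 counts in neonates and 605 and 652 in adults, and its part in the Trpv3 counts was not tested.

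The remaining genes of these families were at or near 0. Trpa1, the irritant receptor of sensory neurons, had 0 counts in 3 libraries and 1 count in the first adult library. Trpv5, an epithelial calcium channel, had 6 counts in the second neonatal library and 0 in the others, and Trpv6, its relative, had 1 and 2 counts in neonates and 0 in adults. None of the 9 untested channel genes passed when the filter on low counts was left out, with edgeR adjusted p from 0.11 for Asic3 to 0.83 for Trpm1.

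Of 3 acid-sensing channel genes tested, 1 passed as higher and 2 as lower in neonates with no minimum fold, beside 31.2% and 31.1% of all genes, and the direction of Asic2 and Asic4 was fixed by the filter, which they passed only through the adult libraries. Asic1, a subunit of the main acid-gated channel of neurons, was at 13.5 and 12.4 CPM in neonates and at 6.46 and 4.98 CPM in adults, 2.26-fold higher in neonates (log2 fold change 1.18 ± 0.20 SE, edgeR adjusted p = 0.00088). Asic2, a partner subunit of Asic1, was at 0.730 and 0.666 CPM in neonates and at 1.10 and 2.21 CPM in adults (log2 fold change -1.24 ± 0.46 SE, edgeR adjusted p = 0.039). Asic2 overlaps the protein-coding LOC134480834 and Rpl35al3, among other genes, in the RefSeq gene table, and their part in its counts was not tested. As a description, the ratio of Asic1 to Asic2 counts was 18.5 and 18.6 in neonates and 5.87 and 2.25 in adults. Asic1 was just under 2-fold without the second adult library (log2 fold change 0.98) and when scaled to library size alone (0.93). The Asic2 call was weak, with an adjusted p of 0.074 in DESeq2, 0.061 in limma-voom and 0.060 without the filter. It also did not hold without the first or the second neonatal library (log2 fold change -1.3 and -1.16), where the adults alone gave the spread. Asic4, a subunit that forms no acid-gated channel by itself, had 11 and 13 counts in neonates and 51 and 53 in adults, a 3.82-fold higher level in adults (log2 fold change -1.93 ± 0.44 SE, edgeR adjusted p = 0.0044). Asic3, the acid sensor of sensory neurons, was not tested, with 12 and 23 counts in neonates and 6 and 3 in adults. Asic5 had 1 count in all 4 libraries together.

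Of the 4 genes called at 2-fold that were above 1 CPM at both ages, Trpc5, Trpm5 and Asic1 had an entry in the RefSeq promoter table (GRCr8), and their promoters are given to show the sequence before the start of genes that differed in opposite directions. Each runs 5′ to 3′ on the gene's strand, from 250 bases before to 50 bases after the start, at chrX:113027589-113027888 (minus strand) for Trpc5, chr1:207707039-207707338 (minus strand) for Trpm5 and chr7:132678457-132678756 (plus strand) for Asic1. Capitals mark matches on either strand to 4 motifs. The GC box was searched as GGGCGG, and 33.1% of 33469 rat promoters of this length hold it. The TATA box was searched as TATAAA, held by 14.2% of them. The CCAAT box was searched as those 5 letters, held by 37.5%. The core of the hypoxia response element was searched as ACGTG, held by 19.3%. None of these motifs overlaps another in the windows shown.
Trpc5: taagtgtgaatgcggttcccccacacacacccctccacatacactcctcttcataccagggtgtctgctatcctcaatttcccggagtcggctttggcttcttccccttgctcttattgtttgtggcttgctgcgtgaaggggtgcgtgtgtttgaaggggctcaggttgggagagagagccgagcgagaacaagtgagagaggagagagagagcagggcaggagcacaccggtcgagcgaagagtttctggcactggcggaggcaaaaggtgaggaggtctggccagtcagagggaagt
Trpm5: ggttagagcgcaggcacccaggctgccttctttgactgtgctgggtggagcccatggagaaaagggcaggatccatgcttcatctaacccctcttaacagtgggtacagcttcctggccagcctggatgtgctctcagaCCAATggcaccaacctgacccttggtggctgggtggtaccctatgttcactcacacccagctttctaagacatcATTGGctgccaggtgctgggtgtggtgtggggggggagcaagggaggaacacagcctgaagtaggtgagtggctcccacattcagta
Asic1: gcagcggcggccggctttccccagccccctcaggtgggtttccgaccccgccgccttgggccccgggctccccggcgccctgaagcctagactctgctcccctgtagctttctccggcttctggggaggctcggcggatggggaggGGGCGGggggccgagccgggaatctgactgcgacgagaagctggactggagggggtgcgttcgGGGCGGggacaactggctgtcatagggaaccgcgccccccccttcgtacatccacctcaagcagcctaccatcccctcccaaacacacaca
The Asic1 window held 2 GC boxes, the Trpm5 window 2 CCAAT boxes, of which 1 is on the other strand and reads ATTGG, and the Trpc5 window none of the 4 motifs. Their GC content was 69.7%, 57.0% and 56.3%, beside a median of 51.7% over all promoters. A match is a string of letters and not a shown binding site.

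Of the 3 HCN genes described, Hcn4 and Hcn2 were lower in neonates and 0 higher, beside 31.1% and 31.2% of all genes. Hcn4, the main pacemaker channel of the heart's sinus node and a slowly opening member, was at 2.75 and 1.94 CPM in neonates and at 11.3 and 13.3 CPM in adults. Both adult libraries were well above both neonatal ones, 5.24-fold on average (log2 fold change -2.39 ± 0.25 SE, edgeR adjusted p = 5.6e-05). Hcn2, a form common in brain and heart, was at 6.83 and 8.02 CPM in neonates and at 14.1 and 11.5 CPM in adults, 1.72-fold higher in adults (log2 fold change -0.79 ± 0.19 SE, edgeR adjusted p = 0.0058). Hcn3 was at 24.2 and 22.9 CPM in neonates and at 22.7 and 19.6 CPM in adults, with a log2 fold change of 0.15 ± 0.12 SE (edgeR adjusted p = 0.28) that was -0.09 when scaled to library size alone. Without the first adult library, where the neonates alone gave the spread, the log2 fold change of Hcn2 was -0.66 and its call did not hold.

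Within a library, the ratio of Hcn4 to Hcn3 counts was 0.114 and 0.0851 in neonates and 0.497 and 0.683 in adults, 5.92-fold higher in adults. The ratio of Hcn2 to Hcn3 was 0.283 and 0.351 in neonates and 0.621 and 0.587 in adults, 1.92-fold higher. The ratio of Hcn4 to Hcn2 was 0.403 and 0.242 in neonates and 0.801 and 1.16 in adults. Hcn4 thus gained on both other genes, with no overlap between ages. Hcn3 overlaps Pklr in the RefSeq gene table, a gene with 338 and 416 counts in neonates and 515 and 535 in adults, and the strand setting of the counting was not given in the sources used here.

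Both Piezo genes were higher in neonates by less than 2-fold, beside 31.2% of all genes higher at any fold. Piezo1, the stretch-activated channel of vessel walls and blood cells, was at 68.0 and 80.7 CPM in neonates and at 46.7 and 59.5 CPM in adults, 1.40-fold higher (log2 fold change 0.48 ± 0.13 SE, edgeR adjusted p = 0.011). Piezo2, the stretch-activated channel of touch and baroreceptor neurons, was at 48.9 and 45.1 CPM in neonates and at 31.9 and 35.0 CPM in adults, 1.41-fold higher (log2 fold change 0.49 ± 0.097 SE, edgeR adjusted p = 0.0021). Their log2 fold changes differed by less than either SE, and the ratio of Piezo1 to Piezo2 counts was 1.39 and 1.79 in neonates and 1.46 and 1.70 in adults, with the ages overlapping. Both calls were lost when scaled to library size alone (edgeR adjusted p = 0.17 for Piezo1 and 0.055 for Piezo2), where both log2 fold changes were 0.24. That of Piezo1 also did not hold without the first adult library (log2 fold change 0.29), where the neonates alone gave the spread. Piezo1 overlaps Ctu2, a gene with 1023 and 898 counts in neonates and 562 and 538 in adults, and its part in the Piezo1 counts was not tested.

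Proteins known to bind or regulate these channels were listed as 15 genes, of which 12 were tested, with 2 higher and 4 lower in neonates at no minimum fold, against 31.2% and 31.1% of all genes. Cav1, the caveolar scaffold to which TRPC1 binds, was at 328 and 359 CPM in neonates and at 391 and 493 CPM in adults (log2 fold change -0.37 ± 0.12 SE, edgeR adjusted p = 0.023). Stim1, the calcium store sensor that gates Orai and TRPC channels, was at 52.3 and 57.0 CPM in neonates and at 102 and 94.7 CPM in adults (log2 fold change -0.84 ± 0.088 SE, edgeR adjusted p = 5.9e-05). Pacsin3, which binds TRPV4, was higher in neonates (log2 fold change 0.63 ± 0.17 SE, edgeR adjusted p = 0.012), while Trpv4 itself was lower. Mdfi, which binds Piezo channels, was at 11.4 and 9.64 CPM in neonates and at 3.87 and 4.65 CPM in adults (log2 fold change 1.30 ± 0.22 SE, edgeR adjusted p = 0.0008). Its relative Mdfic, which also binds Piezo channels, was at 44.5 and 50.5 CPM in neonates and at 39.6 and 48.4 CPM in adults and did not pass (log2 fold change 0.11 ± 0.12 SE, edgeR adjusted p = 0.44). Homer2, a scaffold of TRPC channels, was lower (log2 fold change -0.69 ± 0.19 SE, edgeR adjusted p = 0.0099). Pirt, a regulator of TRPV1, was at 1.21 and 0.861 CPM in neonates and at 5.73 and 6.26 CPM in adults (log2 fold change -2.53 ± 0.30 SE, edgeR adjusted p = 0.00013), while Trpv1 itself did not pass. Mdfi, Mdfic and Pirt were named after their values had been seen.

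The cells of the CB were followed by marker lists, whose part in the channel values was not tested. Counts of markers are those that passed with no minimum fold, to be read beside 31.2% higher and 31.1% lower among all genes. Of 14 glomus cell markers, 6 were higher and 4 lower in neonates, and their summed level was 9120 and 7740 CPM in neonates and 10900 and 8710 CPM in adults, led by Epas1. Chga and Gata3, which are 2 of the 6 and were named after their values had been seen, were highest in the first neonatal library, as Pth was, with Chga at 1720 and 791 CPM in neonates and at 784 and 659 CPM in adults and Gata3 at 12.7 and 5.72 CPM in neonates and at 3.62 and 2.87 CPM in adults. Dbh, Slc18a1 and Cox4i2, also among the 6 and named after their values had been seen, were highest in that library too. They were at 216, 440 and 349 CPM there and at 139, 410 and 293 CPM in the second neonatal library. Kcnk3, the last of the 6, was highest in the second, at 227 CPM against 217 CPM. The part of parathyroid RNA in these values and in the sums was not tested. Of 14 neuron markers, 11 were tested and 6 were higher and 0 lower in neonates, and their summed level was 2210 and 2010 CPM in neonates and 1590 and 1340 CPM in adults. The other 5 did not pass, among them the most abundant, Snap25 (log2 fold change -0.11 ± 0.09 SE, edgeR adjusted p = 0.33). Pou4f1, which defines sensory neurons, had 0 counts in 3 libraries and 1 count in the second adult library. Of 8 glia markers, 3 were higher and 2 lower, where 1 of the 3, Fabp7, passed the filter only through the neonatal libraries, and their sum of 753 CPM in the first neonatal library was below the 1100, 885 and 961 CPM of the others, led by Mbp. The 2 lower were Gfap (log2 fold change -1.96 ± 0.19 SE) and Cdh19 (-0.93 ± 0.08 SE). Sox10 (0.31 ± 0.088 SE) and Erbb3 (0.42 ± 0.11 SE) were the other higher ones. All 4 were named after their values had been seen.

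Vascular markers had sums of 1120 and 1160 CPM in neonates and 1150 and 1160 CPM in adults for 7 endothelial genes (1 higher, 3 lower, led by Cdh5) and of 1000 and 1080 CPM against 1120 and 1300 CPM for 8 smooth muscle and pericyte genes (1 higher, 5 lower, led by Pdgfrb). For 7 fibroblast genes (1 higher, 4 lower, led by Col3a1) they were 14500 and 17300 CPM in neonates and 17100 and 18900 CPM in adults. Macrophage markers summed to 94.0 and 105 CPM in neonates and to 154 and 150 CPM in adults (1 higher, 5 lower of 7, led by Csf1r). Most macrophage markers were thus higher in adults. Mast cell markers ran the other way, at 51.7 and 55.2 CPM in neonates and 24.7 and 18.8 CPM in adults (3 higher, 0 lower of 4 tested, led by Cpa3). Erythroid genes summed to 13500 and 7660 CPM in neonates and to 2900 and 2530 CPM in adults, with all 6 higher in neonates and Hba-a1 the most abundant. Of tissue around the CB, parathyroid markers summed to 1790 and 211 CPM in neonates and to at most 0.0503 CPM in adults (both genes tested higher, a direction fixed by the filter, which they passed only through the neonatal libraries). Skeletal muscle markers summed to 16.6 and 24.3 CPM in neonates and to 16.8 and 23.0 CPM in adults (0 of 4 tested passed, led by Tnnt3), and adipocyte markers to 180 and 251 CPM against 192 and 242 CPM (1 higher, 3 lower, led by Fabp4). Fabp4, the 1 higher, was at 133 and 178 CPM in neonates and at 93.8 and 125 CPM in adults. Adipoq, Plin1 and Lpl, named after their values had been seen, were lower (log2 fold change -2.5 ± 0.23, -2.3 ± 0.38 and -0.57 ± 0.18 SE). Thyroid markers reached at most 0.783 CPM in sum, with Nkx2-1 at 0.

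**Figure D5:**
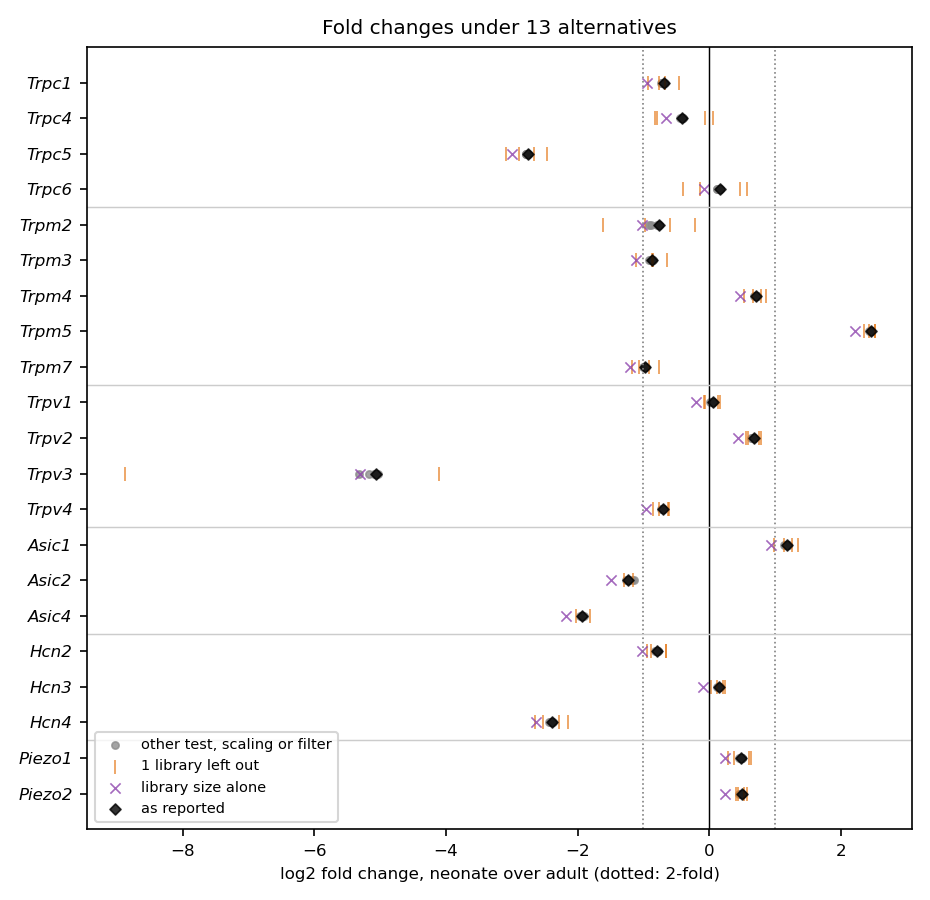
Log2 fold change, neonate over adult, of the 21 tested channel genes as reported (diamonds) and under 13 alternatives, with orange ticks for 1 library left out and purple crosses for scaling to library size alone. Trpc5 stays between -3.09 and -2.47 and Hcn4 between -2.65 and -2.14, whereas Trpc4, Trpc6, Trpv1 and Hcn3, none of which passed, cross 0.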

How the data were processed

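RNA of CBs pooled within an age was sequenced after poly A+ selection, in 2 libraries of neonates and 2 of adults. The authors deposited estimated counts per gene, neither normalized nor filtered, made with STAR and Salmon on the rat build Rnor_6.0 (Salmon 1.5.2 per the submitters' processing notes). Fractional estimated counts, found for 5.02% to 6.19% of genes per library, were rounded. All columns belonged to these libraries. The methods of the study describe adults raised from part of the litter whose other pups were taken as neonates, so the ages may share litters, and no source used here ties litters to replicate numbers. The labels call the replicates biological without saying more, so p-values measure the spread between these samples.

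Genes annotated as other than protein-coding in a RefSeq table of another assembly (GRCr8) were removed by symbol (642 of 32883), and 13665 genes without a biotype there were kept. The 13838 genes at 1 CPM or more in 2 or more libraries were tested with edgeR 4.0.16 in R 4.3.3 by the quasi-likelihood test after TMM normalization, two-sided and without covariates, and p-values were adjusted by Benjamini-Hochberg over all of them. Genes were called at an adjusted p under 0.05, with or without a minimum of 2-fold. Standard errors are the log2 fold change divided by the square root of F. TMM factors were 0.902 and 0.935 in neonates and 1.08 and 1.10 in adults. An exact permutation test of 2 libraries against 2 cannot give a p under 0.333. Replicates differed by far more than sampling noise (chi-square per degree of freedom 29 in neonates and 13.3 in adults). The procedure was also run on simulated counts, with the simulated spread and the draw chosen after several had been seen. Some unchanged genes were called in each draw, and no result rests on that run.

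The channel genes and lists were chosen with earlier results of these data known. Some channel genes (2 of the 32) and markers are not reported here and are left out of the counts and sums of the lists, but not of the fit. Every other tested channel gene is named with its values, those not tested with their counts, and from the list upstream of TRPC channels and the list of binding proteins the 4 most abundant genes that passed. Genes added after their values were seen are said to be so. Transcript lengths were not used here, so the most abundant genes of a list are those with the highest CPM, not divided by length, and channel genes were not ranked by level. Promoters were found for 24 of the 30 symbols, and 15 of the 30 genes overlap another gene in the RefSeq gene table. The part of the overlapping genes in the counts was not tested for any of them. Python 3.11.15 and scipy 1.17.1 were used for tables. Alternatives were DESeq2 1.42.0, limma-voom (limma 3.58.1), other scalings and filters, all biotypes, a replicate block and each library left out.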

Additional observations from a re-analysis of the deposited data

How the results depend on the processing

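With each library left out in turn, the channel genes called at 2-fold were 1 to 2 higher and 2 to 5 lower, those at an adjusted p under 0.05 were 5 to 6 higher and 5 to 9 lower, all genes called were 932 to 1050 higher and 1324 to 1896 lower (1063 and 1821 with all libraries), and the median of the channel genes was -0.66 to -0.11. With 1 library left out, the other age alone gave the spread. Without either adult library Asic2, Asic4 and Trpv3 fell under the filter, which left 18 channel genes. Scaled to library size alone, 704 genes were called higher and 2548 lower, 1 channel gene was called higher and 8 lower, the channel genes' median was -0.94, and Hcn3, Trpc6 and Trpv1, none of which passed, turned to -0.09, -0.08 and -0.20. With a mean of at least 5 CPM, 13 channel genes were tested, 1 was called higher and 3 lower at 2-fold and 6 lower with no minimum fold, 654 genes were called higher and 1169 lower, and the median was 0.01. Among genes that did not pass, signs also turned with 1 library left out, over a range of -0.82 to 0.05 for Trpc4, -0.40 to 0.58 for Trpc6 and -0.08 to 0.17 for Trpv1, and the cause was not tested. Asic1, Hcn4, Trpc1, Trpc5, Trpm4, Trpm7 and Trpv2 kept direction under all 13 alternatives, and Trpm5 under 12 of 12. Under those that kept all 4 libraries, the adjusted p of these genes was also under 0.05. So was that of Hcn2, Trpm3 and Trpv4, whose calls did not hold in some fits with 1 library left out. Asic4 and Trpv3 were lower in neonates under the 10 alternatives that kept them. Where the filter on low counts was used, it fixed that direction, which is no sign of stability. Without that filter both were lower as well, with log2 fold changes of -1.96 for Asic4 (edgeR adjusted p = 0.013) and -5.1 for Trpv3 (edgeR adjusted p = 0.0015). The labels give both ages the same replicate numbers, but same-numbered libraries did not deviate together (r = -0.0156 over 13838 genes), and a replicate block gave 2 channel genes higher and 5 lower, a median of -0.70, and 1071 genes higher and 1864 lower. The depth limits the 9 untested channel genes.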

Other observations

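Channels of the same or neighbouring families outside the symbol rule were listed as 21 genes, of which 8 were tested, and 1 passed as higher and 4 as lower in neonates with no minimum fold, beside 31.2% and 31.1% of all genes. Pkd1, the polycystin partner of the TRP-like channel Pkd2, was at 135 and 143 CPM in neonates and at 191 and 210 CPM in adults (log2 fold change -0.53 ± 0.082 SE, edgeR adjusted p = 0.00052), and Pkd2 was at 102 and 110 CPM in neonates and at 127 and 126 CPM in adults (log2 fold change -0.25 ± 0.076 SE, edgeR adjusted p = 0.017). Both subunits were higher in adults. The osmotically gated Tmem63 channels were split, with 1 higher and 2 lower of 3, namely Tmem63b higher in neonates at 90.8 and 89.7 CPM against 69.7 and 63.4 CPM in adults (log2 fold change 0.44 ± 0.085 SE, edgeR adjusted p = 0.0019) and Tmem63a lower at 11.6 and 10.0 CPM against 16.5 and 16.7 CPM (log2 fold change -0.62 ± 0.14 SE, edgeR adjusted p = 0.005). Tmem63c, named after its values had been seen, was lower as well, at 7.61 and 6.5 CPM against 11.1 and 11.7 CPM (log2 fold change -0.69 ± 0.18 SE, edgeR adjusted p = 0.0097). The lysosomal channel Mcoln1, named after its values had been seen, was at 37.8 and 35.0 CPM in neonates and at 38.3 and 34.8 CPM in adults, with the ages overlapping. Cnga1, Tmc1 and Tmc2 had 0 counts in all 4 libraries, which allows at most 3 counts each per library, or 0.0735 to 0.0843 CPM.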
